A study of Mus musculus with 4 samples.

Results

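The subunits of the mitochondrial respiratory chain and of the ATP synthase were examined in immortalized mouse macrophages with and without MK2, the p38-activated protein kinase encoded by *Mapkapk2*. Genes were taken by name: *Ndufa*, *Ndufb*, *Ndufc*, *Ndufs* and *Ndufv*, *Sdha* to *Sdhd*, *Uqcr*, *Cox4* to *Cox8* and *Atp5* for the nuclear genome, and *mt-Nd*, *mt-Co*, *mt-Cytb* and *mt-Atp* for the mitochondrial genome. This gave 113 of the 55356 genes listed, of which 100 are nuclear and 13 mitochondrially encoded. A further 15 names that contain -ps, which marks pseudogenes, were left out. The rule also takes in the 8 *Ndufaf* genes, which encode assembly factors of complex I and no subunit. A mean of at least 10 normalized counts over the 4 libraries was reached by 102 of the 113 genes, 89 nuclear and all 13 mitochondrial. The statements on ratios rest on these, next to all 12483 genes above the same minimum.

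The data comprised 4 libraries, 1 for each condition. The cells come from bone marrow-derived macrophages of *MK2*-deficient mice, which had been immortalized, transduced with a retrovirus and sorted for the GFP signal that the vector encodes. The virus carried either no further gene (i*MK2*-KO +*GFP*, lacking MK2) or *MK2* (i*MK2*-KO +*MK2*), so that both lines share the knockout, the immortalization and the vector. Each line was sequenced without treatment (UT) and after 1 h with IL-1α at 5 ng/mL. The labels call the genotype of i*MK2*-KO +*MK2* cells wild type, although these are rescued knockout cells with MK2 from a viral vector. Below, the lines are called +*GFP* and +*MK2*. *Mapkapk2* was listed at 561 normalized counts (UT) and 1585 (IL-1α) in the +*GFP* line and at 38357 and 38141 in the +*MK2* line, which is the order that the labels give.

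The values of a library summed to between 24891906 and 25733071 normalized counts. All 8 macrophage markers examined were present, and those of neutrophils, T cells, B cells, fibroblasts and endothelial cells summed to at most 14 normalized counts in any library. Of the macrophage markers, 6 of 8 were lower in +*GFP* cells beyond counting error in both comparisons of the lines, among them *Mertk* (421 and 364 normalized counts without MK2, UT and IL-1α, and 1093 and 1168 with MK2), while *Lyz2* lay between 59858 and 64591 and the 8 markers summed to 109564 and 118636 without MK2 and 114593 and 117518 with MK2. The 4 dendritic cell markers summed to 23 and 21 against 106 and 116, nearly all of it *Zbtb46*. The part of these differences in the results below was not tested. In both comparisons, 2408 of all 12483 genes were lower beyond counting error. With 1 library a condition, there is no estimate of the spread between cultures, and no test was made. Each difference is the log2 ratio of 2 libraries with a pseudocount of 1. Beyond counting error means that the exact 95% Clopper-Pearson interval of the ratio, with 1 normalized count taken as 1 read, excludes 0. Such an interval covers counting error only. In RNA from whole cultures, fewer mitochondria, less RNA per mitochondrion and a change in the mix of cells cannot be told apart.

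The respiratory chain passes electrons from NADH (complex I) and succinate (complex II) through ubiquinone, complex III, cytochrome c and complex IV to oxygen, and pumps protons across the inner mitochondrial membrane, which the ATP synthase (complex V) uses to make ATP. Complexes I, III, IV and V are built from subunits of both genomes, whereas complex II is encoded by nuclear genes alone. Mitochondrial DNA is transcribed from both strands into long precursors that are cut mostly at transfer RNAs, and only *mt-Nd6* among the protein genes lies on the other strand. In the mouse these genes run from *mt-Nd1* (chrM:2751-3707) to *mt-Cytb* (chrM:14145-15288), in GRCm38 and as listed in the table. In macrophages, the balance between respiration and glycolysis is known to shift with inflammatory activation.

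A stretch of nuclear chromosome 1 carries gene models that are near copies of mitochondrial genes, and these took up a large part of the counts. Over the aligned bases, *Gm28661* was identical to *mt-Co2* (681 bases), *Gm10925* to *mt-Atp6* (678), *Gm28437* to *mt-Co3* (783), *Gm10222* to *mt-Nd4l* (294) and *Gm28439* to *mt-Nd4* (876 of 1378). *Gm28438* differed from *mt-Nd3* in 1 of 345 bases. The first 60 bases of this pair are shown, because a read outside the differing base, in capitals, can belong to either (GENCODE M21 transcripts):
mt-Nd3: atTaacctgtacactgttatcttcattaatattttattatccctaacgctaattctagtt
Gm28438: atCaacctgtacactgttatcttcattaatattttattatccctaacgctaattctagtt

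Between 84.0 and 91.5% of the counts of the *mt-Nd3* pair stood on *Gm28438*. The nuclear model took 55.9 to 64.1% for *mt-Co3*, 44.7 to 54.4% for *mt-Nd4l*, 42.2 to 44.1% for *mt-Co2*, 11.4 to 13.8% for *mt-Atp6* and 1.18 to 4.06% for *mt-Nd4*. Which of the 2 a read came from cannot be told from identical sequence, so the values of these genes as deposited are uncertain, and they are given below also with the copy added, a choice made after the values were seen. *Gm29216*, which differs from *mt-Co1* in 6 of 492 bases, held at most 32 counts in a library and hardly touches *mt-Co1*. Of the words of 31 bases in *mt-Nd1*, none occurs in a transcript of another gene, and in *mt-Cytb* 6.55% do, so that these 2 genes are little affected.

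The mitochondrially encoded subunits had the higher levels by their median. Per kb of transcript, their mean level over the 4 libraries had a median of 55766 normalized counts and ranged from 4063 (*mt-Nd3*, as deposited) to 204552 (*mt-Co1*, the catalytic subunit of complex IV). The 89 nuclear members had a median of 2658 per kb, with *Atp5b*, the catalytic β subunit of the ATP synthase, at the top (22095), followed by *Cox4i1* (15423) and *Atp5g3* (15317). These lengths are those of the principal transcript in GENCODE, or of the longest coding or longest transcript where no principal one was found. A gene with several 3' ends has no single length.

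*mt-Cytb*, the cytochrome b of complex III and the sole subunit of that complex encoded in mitochondria, differed most between the lines among the mitochondrially encoded subunits. Its normalized counts were 66804 (UT) and 67897 (IL-1α) without MK2, against 105290 and 106570 with MK2. Both libraries without MK2 thus lay below both libraries with MK2, by a log2 ratio of -0.66 (95% interval -0.67 to -0.64) untreated and -0.65 (-0.66 to -0.64) after IL-1α.

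The 2 mitochondrial subunits of the ATP synthase were also lower without MK2. *mt-Atp8* had 13082 and 13118 normalized counts without MK2 and 17248 and 17630 with MK2, and *mt-Atp6*, which forms part of the proton channel, had 81308 and 84539 against 109996 and 112534. The log2 ratios were -0.40 and -0.43 for *mt-Atp8* and -0.44 and -0.41 for *mt-Atp6*, in the order untreated and IL-1α. Their reading frames overlap and they are kept on 1 mRNA, so reads in the overlap could be assigned to either. With *Gm10925* added, the ratios of *mt-Atp6* were -0.46 and -0.42.

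Of the complex I subunits, which form the membrane arm, *mt-Nd2* had 50037 and 52273 normalized counts without MK2 and 64929 and 64301 with MK2 (log2 ratios -0.38 and -0.30). *mt-Nd4* had 55849 and 61513 against 68784 and 70649 (-0.30 and -0.20, and with *Gm28439* added -0.27 and -0.20). *mt-Nd5* had 41152 and 44331 against 44914 and 47488 (-0.13 and -0.10). In these 3 genes both libraries of +*GFP* cells were below both of +*MK2* cells, while *mt-Nd1* was the exception: it had 113357 and 118255 against 111259 and 112077 and was slightly higher without MK2 (0.03 and 0.08).

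*mt-Nd6*, on the other strand, gave no constant order. It had 3207 and 2367 normalized counts without MK2 (UT and IL-1α) and 2379 and 2584 with MK2, so that 1 library stood above the other 3. The log2 ratio between the lines was 0.43 untreated and -0.13 after IL-1α. The labels name a kit that keeps strand, but whether strand was used in counting is not stated, so reads of *mt-Nd6* and of transcripts from the opposite strand may not be separated.

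In the catalytic core of complex IV, *mt-Co1* differed little, with 308883 and 317014 normalized counts without MK2 and 317384 and 320853 with MK2 (-0.04 and -0.02), whereas the ratios of *mt-Co2* were near the median of the mitochondrial genes. *mt-Co2*, which receives electrons from cytochrome c, had 70548 and 72969 against 85401 and 86875 (-0.28 and -0.25). With *Gm28661* added these became 125854 and 126284 against 152817 and 151963, and the ratios hardly moved (-0.28 and -0.27).

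For the 3 remaining pairs the copies mattered. *mt-Co3* had 41445 and 34953 normalized counts without MK2 and 43639 and 47768 with MK2 (-0.07 and -0.45), and with *Gm28437* 96100 and 97412 against 109552 and 108271 (-0.19 and -0.15). *mt-Nd3* had 1572 and 872 against 1876 and 1336 (-0.25 and -0.61), and with *Gm28438* 9828 and 10205 against 13416 and 13152 (-0.45 and -0.37). *mt-Nd4l* had 3708 and 4226 against 4345 and 3966 (-0.23 and 0.09), and with *Gm10222* 7109 and 7643 against 8627 and 8697 (-0.28 and -0.19). Summed over gene and copy, each of the 3 was thus lower in both libraries without MK2 than in both libraries with MK2, which was not so for *mt-Nd3* and *mt-Nd4l* as deposited. The copies lie on chromosome 1, where the median of all genes was -0.26 (UT) and -0.24 (IL-1α). The part of that chromosome in these sums was not tested.

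**Figure D1:**
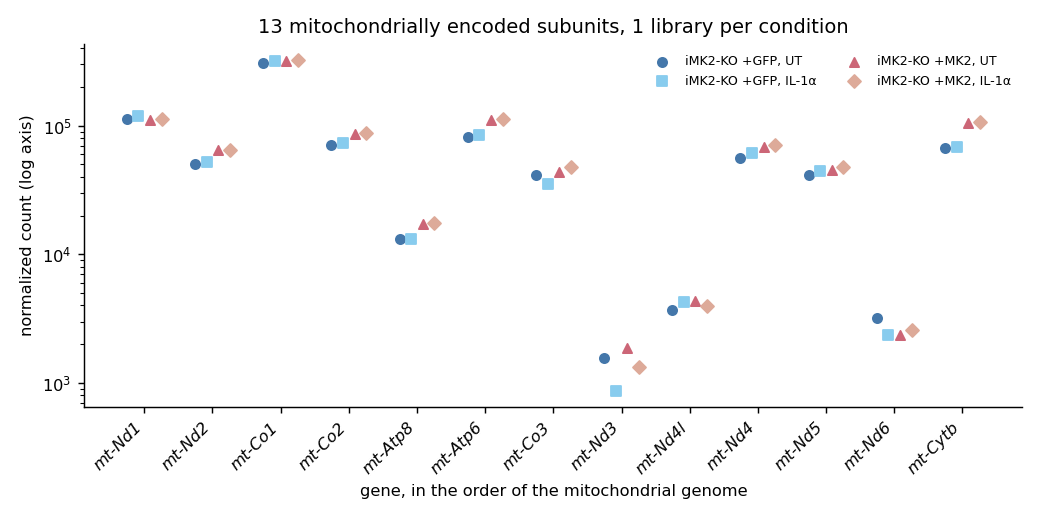
Normalized counts (log axis) of the 13 mitochondrially encoded genes as deposited, in the order of the mitochondrial genome, with 1 point for each of the 4 libraries. *mt-Co1* lies between 308883 and 320853 in all libraries, *mt-Cytb* falls into a lower pair (66804 and 67897, without MK2) and an upper pair (105290 and 106570, with MK2), and *mt-Nd3* is the lowest gene.

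Of the 13 mitochondrial genes, 11 were lower in +*GFP* cells beyond counting error when untreated and 2 were higher (*mt-Nd1* and *mt-Nd6*). After IL-1α again 11 were lower and 2 higher (*mt-Nd1* and *mt-Nd4l*). That is 84.6% lower in each comparison, but all 13 genes passed this limit in 1 direction or the other. *mt-Co1* passed it with a log2 ratio of -0.02 after IL-1α. Of all 12483 genes, 26.9% were lower and 30.8% higher beyond counting error in untreated cells, and 26.3% and 33.7% after IL-1α. As abundant genes pass this limit more easily, the shares were also taken over the 9084 genes with a mean of at least 200: 28.9% lower and 36.7% higher (UT), and 27.7% and 40.5% (IL-1α). The 13 genes had means from 1414 (*mt-Nd3*) to 316034 (*mt-Co1*), so these shares do not correct for their depth. With the copies added, 11 (UT) and 12 (IL-1α) of the 13 were lower. The median log2 ratio of the mitochondrial genes was -0.25 both untreated and after IL-1α, against 0.05 and 0.10 for the nuclear members and 0.02 and 0.03 for all genes. With the copies added it was -0.28 and -0.20.

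**Figure D2:**
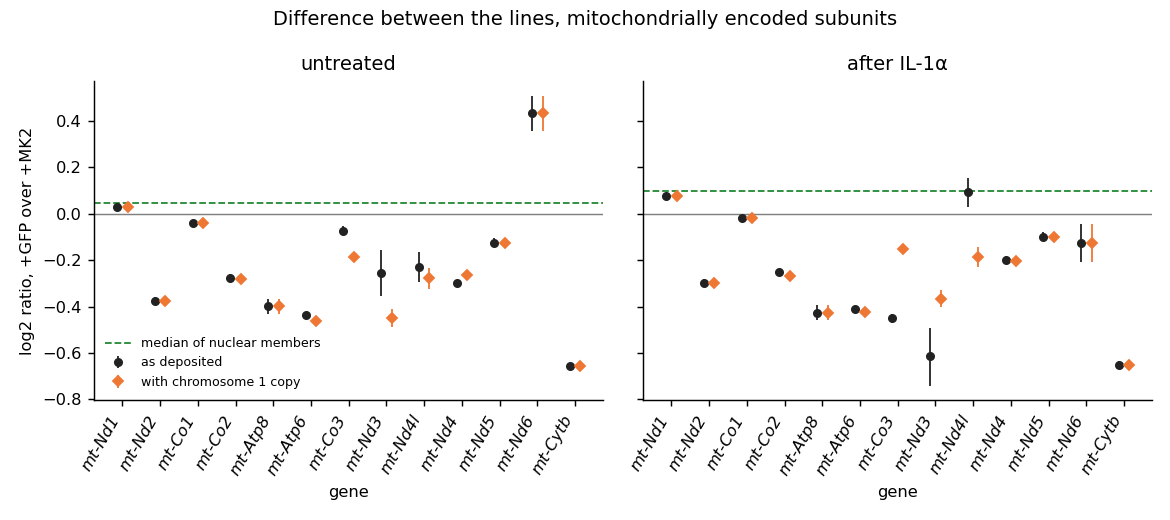
Log2 ratio of +*GFP* over +*MK2* cells for the 13 mitochondrial genes, untreated (left) and after IL-1α (right), as deposited (black) and with the chromosome 1 copy added (orange). Bars are 95% counting intervals and the dashed line is the median of the 89 nuclear members (0.05 and 0.10). *mt-Cytb* is lowest in the untreated panel (-0.66), and the orange points of *mt-Co3*, *mt-Nd3* and *mt-Nd4l* lie closer to each other across the panels than the black ones.

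The difference between the genomes was also seen in sums within a library, which do not depend on scaling between libraries. Mitochondrial genes took 3.41% (UT) and 3.40% (IL-1α) of all normalized counts without MK2 and 3.93% and 3.96% with MK2, whereas nuclear members took 1.28, 1.246, 1.28 and 1.26% in the same order. The mitochondrial to nuclear ratio was thus 2.67 and 2.73 without MK2 and 3.06 and 3.14 with MK2. With the copies added it was 3.10 and 3.16 against 3.58 and 3.64, and without *mt-Co1*, the most abundant gene, 1.70 and 1.74 against 2.07 and 2.13. In each form both libraries of +*GFP* cells lay below both of +*MK2* cells.

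By complex, the mitochondrial sum, as deposited and without the copies, differed between the untreated lines by a log2 ratio of -0.66 for complex III, where it is *mt-Cytb* alone. It differed by -0.43 for complex V, by -0.15 for complex I and by -0.09 for complex IV, in which *mt-Co1* holds most of the counts. The nuclear sums of the same complexes differed by 0.08 for complex III, by 0.00 for complexes V and IV and by -0.06 for complex I, and that of complex II by 0.00. In complexes III and V, the mitochondrial and nuclear parts therefore differed, with mitochondrial shares of 0.27 and 0.38% without MK2 and 0.42 and 0.51% with MK2 in untreated cells, next to nuclear shares of 0.13 and 0.51% without MK2 and 0.12 and 0.51% with MK2.

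**Figure D3:**
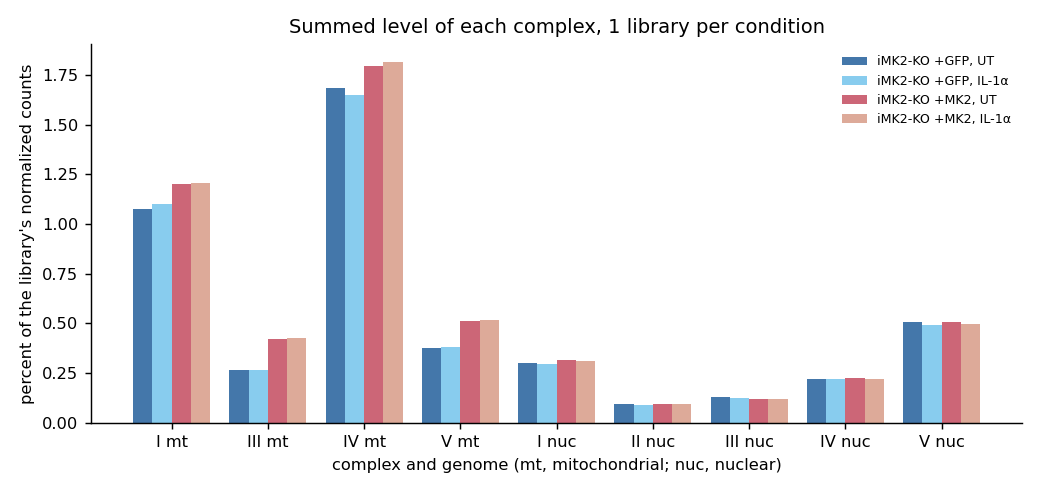
Summed normalized counts of each complex as percent of the library, by genome, with 1 bar for each of the 4 libraries and no error bars because there are no replicates. The mitochondrial bars of complexes III and V are lower in both libraries without MK2 (0.27 and 0.38% untreated) than with MK2 (0.42 and 0.51%), while the nuclear bars are nearly level.

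The 2 ribosomal RNAs of mitochondria, which are transcribed with these genes, did not follow them. *mt-Rnr1*, the small subunit RNA, had 24225 and 24845 normalized counts without MK2 and 14630 and 15434 with MK2 (log2 ratios 0.73 and 0.69), the opposite order to *mt-Cytb*. *mt-Rnr2*, the large subunit RNA, had 60631, 65698, 63961 and 65185, and its ratios were -0.08 and 0.01. The study's text names depletion of ribosomal RNA and the labels a selection of polyadenylated RNA, and the level of ribosomal RNA in such libraries also reflects that step, whose part was not tested. Which step was used is not settled, and its part in the levels of the mitochondrial protein genes was not tested either. Of the 22 mitochondrial transfer RNA genes, 16 were at 0 in all libraries and none reached a mean of 10.

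Differences of the nuclear members between the lines were smaller. In untreated cells 34 of 89 (38.2%) were higher and 22 (24.7%) lower in +*GFP* cells beyond counting error, and after IL-1α 44 (49.4%) and 20 (22.5%). In untreated cells these shares are near the background of abundant genes given above, and after IL-1α the share of higher genes was above it. The sign was the same in both comparisons in 75 of the 89 genes, next to 9558 of all 12483 genes and 7326 of the 9084 with a mean of at least 200.

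Of all 102 members, none was at least 1.5-fold higher in +*GFP* cells in either comparison, while 7.33% (UT) and 8.41% (IL-1α) of all genes and 3.64% and 5.02% of those with a mean of at least 200 were. At least 1.5-fold lower were *Cox6a2* and *mt-Cytb* in untreated cells and *Cox6a2*, *mt-Cytb* and *mt-Nd3* after IL-1α, that is 1.96% and 2.94% of the members against 10.3% and 11.2% of all genes and 5.11% and 5.41% of the abundant ones. With *Gm28438* added, *mt-Nd3* (-0.37) did not reach this limit after IL-1α. A log2 ratio of at least 0.32 in either direction was reached by 18 (17.6%) and 16 (15.7%) of the members against 35.1% and 37.8% of all genes and 25.6% and 27.9% of the abundant ones. A 2-fold difference was reached by *Cox6a2* alone in both comparisons (8.77% and 9.73% of all genes, 3.18% and 4.05% of the abundant ones).

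Of the 38 nuclear complex I subunits above the minimum, 13 (34.2%) were higher and 11 (28.9%) lower without MK2 in untreated cells. After IL-1α these were 15 (39.5%) and 10 (26.3%). The medians were 0.04 (UT) and 0.05 (IL-1α). These shares were near those of the genes with a mean of at least 200, of which 36.7% were higher and 28.9% lower (UT). After IL-1α the latter were 40.5% and 27.7%. *Ndufa8*, an accessory subunit, was the lowest in untreated cells, with 2457 and 2497 normalized counts without MK2 and 3509 and 3469 with MK2 (-0.51 and -0.47). The highest were *Ndufa1* in untreated cells (839 and 781 against 613 and 642, 0.45 and 0.28) and *Ndufb2* after IL-1α (891 and 885 against 759 and 677, 0.23 and 0.39), both small accessory subunits of the membrane arm. In these 3 genes the 2 libraries of a line lay on 1 side of the 2 libraries of the other.

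Complex II, which also acts in the tricarboxylic acid cycle, gave a mixed picture. *Sdha*, the flavoprotein that oxidizes succinate, had 10531 and 10386 normalized counts without MK2 and 10122 and 9862 with MK2 (0.06 and 0.07). *Sdhb*, the iron-sulfur subunit, was higher without MK2 (3616 and 3580 against 3111 and 2965, 0.22 and 0.27) and *Sdhd*, a membrane anchor, nearly equal (5403 and 5393 against 5161 and 5121, 0.07 and 0.07). The other anchor, *Sdhc*, was lower without MK2 (4040 and 4149 against 5161 and 5473, -0.35 and -0.40). Thus 3 of the 4 genes of this complex were higher and 1 lower beyond counting error in both comparisons. Next to these, 2627 of the 9084 genes with a mean of at least 200 were higher in both and 1940 lower.

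The 8 nuclear members of complex III, which leave out *Cyc1* by the name rule, had median log2 ratios of 0.05 and 0.13. In untreated cells 4 and after IL-1α 7 were higher without MK2 beyond counting error and none was lower. *Uqcrc1*, a core protein and the most abundant, had 7636 and 7815 normalized counts without MK2 and 7582 and 7119 with MK2 (0.01 and 0.13), and *Uqcrc2*, the other core protein, 6980 and 6623 against 6054 and 6060 (0.21 and 0.13). *Uqcr10* had 2997 and 3308 against 2966 and 2829 (0.01 and 0.23), *Uqcr11* 1984 and 2174 against 2074 and 2005 (-0.06 and 0.12) and *Uqcrq* 2983 and 3170 against 2987 and 3056 (0.00 and 0.05), and in these 3 small subunits the order of the lines was not the same in both comparisons or was within counting error.

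Complex IV has subunits with tissue isoforms, of which the ubiquitous forms carried nearly all counts. *Cox4i1* had 11847 and 12157 normalized counts without MK2 and 11696 and 11494 with MK2 (0.02 and 0.08), whereas *Cox4i2*, known from lung and low oxygen, was below the minimum. *Cox6a1* had 3891 and 3894 against 3210 and 3271 (0.28 and 0.25) and was the highest of the complex without MK2. Its muscle isoform *Cox6a2* had 20 and 15 against 46 and 42, with log2 ratios of -1.16 (-2.04 to -0.42) and -1.43 (-2.44 to -0.61). This largest ratio among the members rests on few counts. *Cox7a1*, also a muscle form, had 48 and 43 against 60 and 61 (-0.32 and -0.49, both within counting error).

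Of the other isoforms, *Cox7a2* had 3091, 3121, 3280 and 3290 normalized counts, listed as UT and IL-1α without MK2 and then with MK2 (-0.09 and -0.08), and *Cox7a2l*, which joins complexes III and IV, 4158, 4194, 3503 and 3739 (0.25 and 0.17). *Cox6b1* had 4257, 4354, 4092 and 4126 (0.06 and 0.08), *Cox8a* 4565, 4374, 4019 and 4023 (0.18 and 0.12) and *Ndufa4*, named for complex I but a subunit of complex IV, 4215, 4225, 3801 and 3807 (0.15 and 0.15). *Cox6b2*, *Cox8b*, *Cox8c* and *Ndufa4l2*, isoforms of testis, muscle or low oxygen, were at 0 in all 4 libraries, as were *Cox7b2*, *Ndufb11b* and a second identifier named *Atp5o*. A count of 0 allows up to 3 counts in a library. With *Cox4i2*, *Cox6c2*, *Ndufa11b* and *Ndufs6b*, which had some counts, this makes the 11 members under the minimum.

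In complex V, *Atp5b* had 44586 and 43038 normalized counts without MK2 and 41625 and 40084 with MK2 (0.10 and 0.10). *Atp5mpl*, a small membrane subunit, was the highest without MK2 (1842 and 1794 against 1425 and 1446, 0.37 and 0.31). *Atp5c1*, the γ subunit of the rotating stalk, was the lowest (7193 and 7106 against 9841 and 9786, -0.45 and -0.46). The 3 genes for the c subunit, whose ring turns in the membrane, encode the same mature protein and went different ways. *Atp5g1* had 5769 and 5731 against 5547 and 5333 (0.06 and 0.10). *Atp5g2* had 2614 and 2786 against 2786 and 2878 (-0.09 and -0.05, the latter within counting error). *Atp5g3* had 9276 and 9846 against 12538 and 12638 (-0.43 and -0.36). They lie on chromosomes 11, 15 and 2. The medians of all genes there were 0.06, -0.12 and -0.25 untreated and 0.08, -0.12 and -0.24 after IL-1α. The values of *Atp5g2* are uncertain, as 40.2% of its words of 31 bases also occur in other genes, mainly in *Gm10175*, which had 1219 to 1451 counts. Those of *Ndufb4c* (695 to 835), all of whose words occur in *Ndufb4*, are uncertain for the same reason.

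Most nuclear members on chromosomes 1 and 2 were lower without MK2, a split made after the values were seen. In untreated cells 13 members there had a median log2 ratio of -0.37 and the 76 members elsewhere 0.06, and after IL-1α -0.35 and 0.12. Of the 13, 11 were lower beyond counting error in both comparisons, and elsewhere 11 (UT) and 9 (IL-1α) of 76 were. All genes showed the same split: 59.5% (UT) and 58.5% (IL-1α) of the 1758 genes on chromosomes 1 and 2 were lower beyond counting error, against 21.5% and 20.9% of the 10710 on other nuclear chromosomes. The median of all genes was -0.26 (UT) and -0.24 (IL-1α) on chromosome 1 and -0.25 and -0.24 on chromosome 2. Chromosome 15, counted here with the other chromosomes, was lower to a smaller degree, with medians of -0.12 and -0.12. Its 5 members had medians of -0.10 (UT) and -0.11 (IL-1α). The members on these chromosomes are therefore to be read next to their neighbours. The number of copies of each chromosome was not measured.

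All 6 members on chromosome 1 were lower in +*GFP* cells in both comparisons. *Cox5b*, a nuclear subunit of complex IV, had 3565 and 3910 normalized counts without MK2 and 5118 and 5091 with MK2 (-0.52 and -0.38). Among the others were *Ndufa10* (-0.37 and -0.23), *Ndufs1* (-0.29 and -0.26) and *Ndufb3* (-0.26 and -0.30) of complex I, besides *Sdhc* above. On chromosome 2 these were *Ndufa8*, *Atp5c1* and *Atp5g3* with *Ndufs3* (-0.43 and -0.35) and the assembly factor *Ndufaf1* (643 and 639 against 852 and 831, -0.41 and -0.38), whereas *Atp5e* (-0.01 and -0.01) and *Ndufaf5* (-0.08 and 0.05) were within counting error. *Cox5b*, *Ndufa10*, *Ndufs1*, *Ndufb3*, *Ndufs3*, *Atp5e* and *Ndufaf5* were named after their values were seen, as was *Cox7b* on chromosome X, a complex IV subunit with 3637 and 3863 against 5089 and 4997 (-0.48 and -0.37) that was as low as these although the median of all genes on that chromosome was 0.12 and 0.17.

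**Figure D4:**
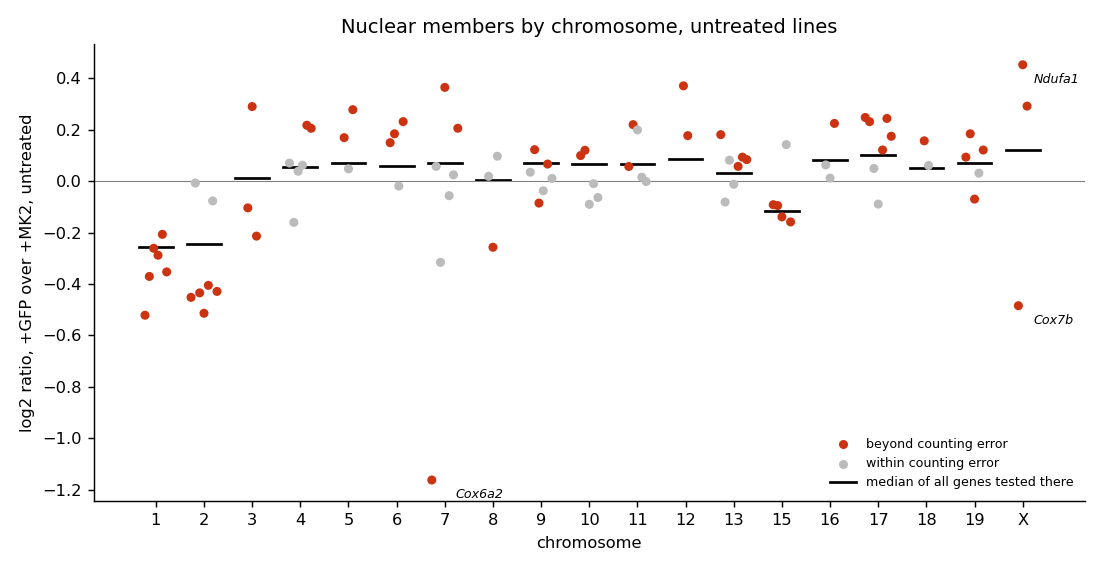
Log2 ratio of untreated +*GFP* over +*MK2* cells for each of the 89 nuclear members by chromosome (red, beyond counting error; grey, within it), with the median of all genes tested on that chromosome as a black line. Chromosomes without a member are left out. Members on chromosomes 1 and 2 lie at or below 0, near black lines of -0.26 and -0.25, and 3 members named in the text, *Cox6a2*, *Cox7b* and *Ndufa1*, are labelled.

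After 1 h of IL-1α the nuclear members were nearly level. In +*GFP* cells their median log2 ratio to untreated cells was 0.01 (range -0.39 to 0.17) and in +*MK2* cells 0.00 (-0.19 to 0.17), against 0.01 and 0.01 for all genes. The lower end in +*GFP* cells is *Cox6a2* with 20 and 15 counts, within counting error. Beyond counting error, 14 were higher and 4 lower in +*GFP* cells (15.7 and 4.49%) and 3 and 8 in +*MK2* cells (3.37 and 8.99%). Of all genes, 20% were higher and 12.3% lower in the former, and 11.4% and 8.23% in the latter. Over the genes with a mean of at least 200, these shares were 24.6% and 13.1%, and 13.6% and 8.84%. *Cox5b* (3565 to 3910, 0.13) and *Uqcr10* (2997 to 3308, 0.14) were among the higher ones in +*GFP* cells.

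Most mitochondrial genes were slightly higher after IL-1α, 9 of 13 beyond counting error in each line, with medians of 0.05 in +*GFP* and 0.02 in +*MK2* cells. These differences are of the size that scaling decides: the +*GFP* median was 0.0053 when libraries were scaled by their totals and 0.0034 when scaled by *Gapdh*. *mt-Nd4* gave 0.14 and 0.04 and *mt-Nd5*, which has no such copy, 0.11 and 0.08. With the copies added, 10 and 6 were higher and 1 in each line lower, *mt-Nd6* in +*GFP* and *mt-Co3* in +*MK2* cells. As deposited, *mt-Nd3* was lower after IL-1α in both lines (-0.85 and -0.49), but *Gm28438* was higher (8256 to 9333 and 11540 to 11816), and their sum gave 0.05 and -0.03. In the same way *mt-Co3* gave -0.25 and 0.13 as deposited and 0.02 and -0.02 with *Gm28437*, and *mt-Nd4l* 0.19 and -0.13 as deposited and 0.10 and 0.01 with *Gm10222*. The lower *mt-Nd3* after IL-1α was thus not present in the sum with its copy.

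A 1.5-fold response to IL-1α was reached by *mt-Nd3* alone, in +*GFP* cells and downward (0.980% of the 102 members), and by no member in +*MK2* cells. Of all genes, 4.7% were at least 1.5-fold higher and 4.29% lower in +*GFP* cells, and 2.72% and 2.92% in +*MK2* cells. Of the genes with a mean of at least 200, these were 2.12% and 0.594%, and 0.286% and 0.264%. A response of at least 0.32 on the log2 scale in either direction was seen in 3 members and 1 member of the 2 lines (2.94% and 0.980%, against 18.4% and 12.9% of all genes and 7.58% and 2.81% of the abundant ones) and a 2-fold response in none (3.85% and 1.92% of all genes, 1.18% and 0.143% of the abundant ones).

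**Figure D5:**
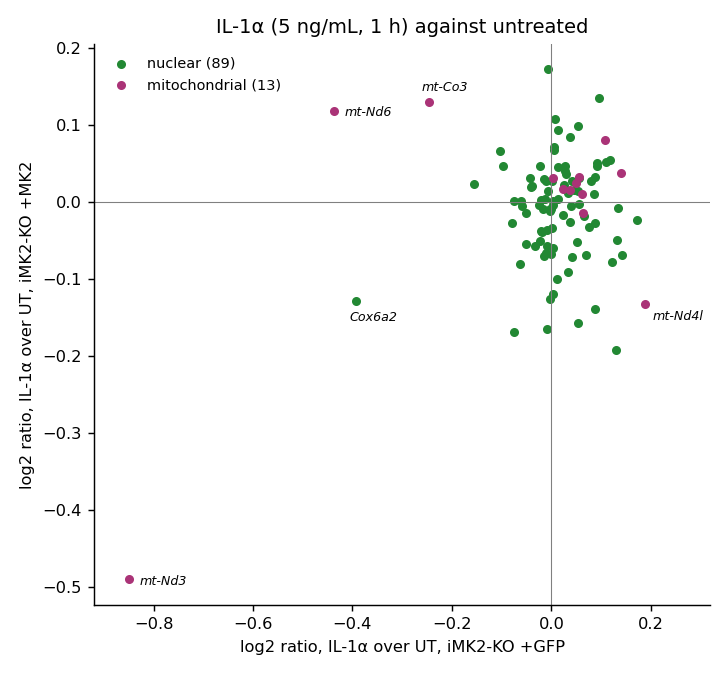
Log2 ratio of IL-1α-treated over untreated cells for the 102 members, in +*GFP* cells (horizontal axis) and +*MK2* cells (vertical axis), with nuclear genes in green and mitochondrial genes in purple, as deposited. Most members lie within 0.2 of the origin on both axes. *mt-Nd3* (-0.85 and -0.49) is the farthest from it.

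Nuclear subunit genes are known to be controlled by NRF1, by GABP, which binds ETS sites, and by YY1, and their core sequences were searched on both strands from 250 bases before to 50 bases after the start of each gene (RefSeq, GRCm38.p6). A promoter was found for 77 of the 99 nuclear names, 74 of them above the minimum. The NRF1 core CGCATGCG was in 11 of these 74 (14.9%), against 4.27% of 9055 genes above the minimum and 1.88% of all 27025 promoters. Its relaxed form CGCANGCG, which includes the core, was in 28 (37.8%, against 18.7% and 8.33%), the ETS core CCGGAAG in 19 (25.7%, against 20.2% and 9.08%) and the YY1 core AAGATGGC in 11 (14.9%, against 5.25% and 2.86%). A match describes letters and not a bound site. Stretches before the start of 3 genes are shown with the matches in capitals: *Ndufa8* as the lowest complex I subunit without MK2, *Cox6a1* as the highest of complex IV, and *Atp5j*, chosen after its values were seen, as a promoter that holds all of the motifs. They lie at chr2:36049339-36049387, chr5:115348959-115349139 and chr16:84835011-84835143, all on the minus strand.
Ndufa8: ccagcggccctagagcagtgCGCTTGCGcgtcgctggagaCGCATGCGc
Cox6a1: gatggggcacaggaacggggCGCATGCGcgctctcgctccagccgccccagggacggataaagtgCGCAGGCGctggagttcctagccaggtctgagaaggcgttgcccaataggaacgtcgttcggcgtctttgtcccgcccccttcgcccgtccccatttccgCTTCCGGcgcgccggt
Atp5j: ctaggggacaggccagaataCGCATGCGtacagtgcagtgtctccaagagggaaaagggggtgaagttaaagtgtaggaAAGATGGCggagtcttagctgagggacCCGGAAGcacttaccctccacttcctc

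*Ndufa8* and *Cox6a1* both hold the NRF1 core and had untreated log2 ratios of -0.51 and 0.28, next to a median of all genes of -0.25 on chromosome 2, where *Ndufa8* lies. *Atp5j* itself, a subunit of the stalk of the ATP synthase, was nearly level with 3200, 3144, 3064 and 3057 normalized counts. Of the factors that use these motifs, *Nrf1* was listed at 945 and 1275 without MK2 and 1040 and 843 with MK2, *Gabpa* at 2247 and 2538 against 1858 and 1849, and *Yy1* at 3465 and 3727 against 3185 and 3139. Among the 9 regulators above the minimum, 4 were higher and 2 lower without MK2 in untreated cells and 5 and 1 after IL-1α, with medians of 0.02 and 0.25. Over all genes, 30.8% were higher and 26.9% lower beyond counting error in untreated cells, and 33.7% and 26.3% after IL-1α. *Esrra*, a nuclear receptor that activates respiratory genes, had 1766 and 1808 against 1325 and 1501 (0.41 and 0.27), and *Pprc1*, a coactivator, 3981 and 4254 against 3151 and 3323 (0.34 and 0.36). *Ppargc1a*, the best-known coactivator of mitochondrial biogenesis, *Esrrb* and *Esrrg* were at 0 in all libraries.

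Genes that maintain and transcribe mitochondrial DNA went both ways: of 13, 3 were higher and 5 lower without MK2 in untreated cells and 5 and 5 after IL-1α. Their medians were -0.10 and -0.04 against 0.02 and 0.03 for all genes, of which 26.9% and 26.3% were lower and 30.8% and 33.7% higher. *Polg2*, the accessory subunit of the mitochondrial DNA polymerase, had 111 and 90 normalized counts without MK2 and 145 and 122 with MK2 (-0.38 and -0.43), the nuclease gene *Mgme1* 728 and 657 against 946 and 904 (-0.38 and -0.46) and *Mterf3*, a negative regulator of mitochondrial transcription, 508 and 570 against 621 and 646 (-0.29 and -0.18). *Tfam*, which packages mitochondrial DNA and activates its transcription, had 1620 and 1941 against 1924 and 1744, and *Polrmt*, its RNA polymerase, 1412 and 1417 against 1229 and 1209.

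Of 16 genes for processing and stability of mitochondrial RNA, 3 were higher and 6 lower in untreated cells and 6 and 5 after IL-1α, with medians of -0.03 and 0.04. The shares of all genes were 30.8% higher and 26.9% lower (UT), and 33.7% and 26.3% (IL-1α). *Hsd17b10*, part of the enzyme that cuts transfer RNAs at their 5' end, was higher without MK2 (2479 and 2471 against 1743 and 1692, 0.51 and 0.55). *Fastkd2*, on chromosome 1, was lower (1629 and 1485 against 2188 and 2117, -0.43 and -0.51), as was *Fastkd3* (825 and 1038 against 1094 and 1138, -0.41 and -0.13). *Lrpprc*, which stabilizes mitochondrial mRNAs, lay between 6211 and 6594 in all libraries.

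Assembly factors of complex I (15 genes) had medians of -0.04 and 0.10, with 2 higher and 2 lower in untreated cells and 5 and 3 after IL-1α. *Ecsit*, also known from Toll-like receptor signalling, was higher without MK2 (1156 and 1091 against 978 and 908, 0.24 and 0.26), and *Nubpl*, which delivers iron-sulfur clusters, had 245 and 275 against 308 and 264 (-0.33 and 0.06). Assembly factors of the other complexes had medians of -0.02 and -0.07 over 31 genes, with 4 higher and 11 lower in untreated cells and 6 and 9 after IL-1α. For both lists, the shares of all genes were 30.8% higher and 26.9% lower (UT), and 33.7% and 26.3% (IL-1α). On chromosomes 1 and 2, 59.5% and 58.5% of all genes were lower. *Coa5* (4236 and 4236 against 6155 and 6378, -0.54 and -0.59) and *Tmem70* (2134 and 2105 against 3058 and 2701, -0.52 and -0.36), both on chromosome 1, were lower without MK2, and *Lyrm7* had 95 and 95 against 191 and 93 (-1.0 and 0.03), 1 library standing apart.

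Among 12 genes of cytochrome c, cytochrome c1 and ubiquinone synthesis, 2 were higher and 2 lower in untreated cells and 5 and 4 after IL-1α, with medians of -0.03 and 0.11. *Pdss1*, on chromosome 2, was lower without MK2 (833 and 773 against 1202 and 1279, -0.53 and -0.73) and *Coq3* higher (624 and 634 against 442 and 495, 0.50 and 0.36), while *Coq8a* had only 5, 33, 13 and 3 counts. *Cyc1*, which belongs to complex III beside *mt-Cytb*, had 6141 and 6198 against 6275 and 6311 and differed within counting error. Of the 13 genes of the tricarboxylic acid cycle, 4 were higher and 6 lower in untreated cells and 4 and 4 after IL-1α, with medians of -0.03 and 0.02. Next to both of these lists, 30.8% of all genes were higher and 26.9% lower (UT), and 33.7% and 26.3% (IL-1α). *Cs*, citrate synthase, was higher without MK2 (14392 and 14235 against 11837 and 12069, 0.28 and 0.24), as was *Idh3g* (4470 and 4463 against 3517 and 3471, 0.35 and 0.36), and *Fh1*, on chromosome 1, had 4679 and 5204 against 5632 and 5395 (-0.27 and -0.05).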

How the data were processed

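RNA sequencing of 4 libraries was used, 1 per condition, grouped by the sample labels. The authors deposited 1 table with a score per gene and library, DESeq2 normalized counts rounded to whole numbers, and column names that point to salmon. The submitters' notes name DESeq2 and GRCm38, versions not given in the sources used here. The study's text describes 1 × 75 bp single reads after ribo-depletion, the labels poly(A) selection and paired reads, which was not resolved. Gene starts of the table coincided with GENCODE M21 (GRCm38) for 1462 of 52043 matched nuclear genes and for all 13 mitochondrial members, so only chromosomes were used from the table.

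Values were used as deposited. With no replicates and rounded normalized values, no count model was fitted. Log2 ratios used a pseudocount of 1, genes a minimum mean of 10, and intervals the exact 95% Clopper-Pearson method. The intervals take 1 normalized count as 1 read, since the size factors are not known. They were tried on simulated Poisson counts alone. That trial held no normalization and no reads shared between copies, so it does not bear on either. Size factors of 0.8 and 1.25, other scalings, pseudocounts and minimum values were alternatives. Named genes were all mitochondrial members, the isoform pairs, the 4 *Sdh* genes, the extremes and most abundant gene of each complex, members past 1.5-fold, and the 3 largest differences of each list, and others are marked in the text or were named for their known role after their values were seen. 1 gene that the rule names is not reported here. Members and lists were chosen with earlier results of these data known. Copies were aligned with Biopython 1.88, statistics used Python 3.11.15 with scipy 1.17.1.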

Additional observations from a re-analysis of the deposited data

Results flagged for a closer look

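In 3 genes the 2 lines moved in opposite directions after IL-1α beyond counting error by at least 0.1 on the log2 scale, and the difference between the lines was not tested, as there is 1 library a condition. *mt-Nd6* had log2 ratios to untreated cells of -0.44 (+*GFP*) and 0.12 (+*MK2*), *mt-Co3* -0.25 and 0.13, and *mt-Nd4l* 0.19 and -0.13. For *mt-Nd6* the difference between the lines also changed sign, with 0.43 untreated and -0.13 after IL-1α. That of *mt-Nd4l* as deposited changed sign too, with -0.23 and 0.09, the latter under the 0.1 used here. With *Gm10222* added it did not (-0.28 and -0.19). The responses to IL-1α with the chromosome 1 copies added were 0.02 and -0.02 for *mt-Co3* and 0.10 and 0.01 for *mt-Nd4l*. *mt-Nd6* has no such copy on chromosome 1, and its untreated +*GFP* library stood above the other 3.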

How the results depend on the processing

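Of 184 recomputed values that answer a comparison, 152 kept within the limits set for them. The median log2 ratio of mitochondrial genes between the untreated lines was -0.31 when scaled by *Gapdh*. After IL-1α it was -0.27 with the trimmed mean of M values, -0.29 with library totals, -0.35 with *Gapdh*, -0.30 with totals without mitochondrial genes, -0.28 without *mt-Nd6* and -0.20 with the chromosome 1 copies, an alternative added after the data were seen. It stayed below the nuclear median in all of these. The IL-1α response of mitochondrial genes in +*GFP* cells was 0.0053 with library totals, 0.0034 with *Gapdh* and 0.0053 with totals without mitochondrial genes, so its direction is not firm. Scaling by *Gapdh* moved the comparison of IL-1α-treated lines by -0.10.

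The number of members at least 1.5-fold lower in untreated +*GFP* cells was 5 without a minimum and 1 with a minimum of 50. Without a minimum, 1 member was higher after IL-1α in +*GFP* cells, and 2 were higher and 2 lower in +*MK2* cells. With the copies added, 0 were lower after IL-1α in +*GFP* cells, and *mt-Nd3* lost its 1.5-fold difference between the IL-1α-treated lines. The *mt-Nd3* response of -0.85 turned to 0.054, as the copy holds most of its counts.

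The mitochondrial to nuclear ratio was, in the order +*GFP* UT, +*GFP* IL-1α, +*MK2* UT and +*MK2* IL-1α, 2.72, 2.77, 3.11 and 3.20 with structural subunits only, 19.6, 19.96, 24.9 and 25.04 as a ratio of medians, 1.70, 1.74, 2.07 and 2.13 without *mt-Co1*, and 3.10, 3.16, 3.58 and 3.64 with the copies. The order of the lines was the same in all of these. No paired analysis was possible because each condition has 1 library, so that no conditions share more than 1 replicate number. Without replicates, no left-out library could be tried, and counting error alone limits what is called different.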

Other observations

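*Gm28439*, the model that is identical to 876 bases of *mt-Nd4*, had 2366 and 732 normalized counts without MK2 (UT and IL-1α) and 1218 and 1050 with MK2. The 2366 stood in the untreated +*GFP* library. The same library was also the highest for *mt-Nd6*. The 7 models on chromosome 1 together held 0.542, 0.545, 0.675 and 0.633% of the 4 libraries in that order, and their sum differed between the untreated lines by a log2 ratio of -0.31, next to -0.20 for the 13 mitochondrial genes as deposited. *Gm10222* and *Gm28439* were named for their likeness to mitochondrial genes.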
